A study of Macaca fascicularis with 6 samples.

Results

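The intact left ventricle was represented by 4 microarrays, 1 for each adult non-operated male cynomolgus monkey (Macaca fascicularis), out of 6 arrays in the series. The 4 arrays were chosen by the label non-operated heart and carry the animal numbers 11, 12, 13 and 14. The other 2 arrays came from hearts with chronic atrioventricular block. They entered only the common level to which all 6 arrays were scaled, and no comparison with block was made. All 4 animals were between 4 and 6 years old, were anaesthetised with thiopental sodium (25 mg/kg) and exsanguinated, and gave a transmural piece of at least 50 mg of the free wall, so that every RNA sample mixed the layers and the cell types of the wall. Labelled copies were made from 100 ng of total RNA from the 3′ end of the transcripts and hybridised to an array designed for the rhesus macaque, a closely related species. Each animal was hybridised once, so that the spread between animals and the spread of the assay cannot be told apart, and no test was run within this single group.

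The left ventricle drives blood through the systemic circulation, and its myocytes are built around the sarcomere, in which myosin thick filaments pull on actin thin filaments under the control of troponin and tropomyosin. Each beat is started by calcium that leaves the sarcoplasmic reticulum through the ryanodine receptor and is pumped back by a calcium pump that phospholamban restrains. The ventricle lives mainly on fatty acid oxidation in densely packed mitochondria, and many of its proteins come in isoforms of which the heart, the atrium, the embryo and skeletal muscle each use a preferred member.

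A probe set is a group of probes for 1 transcript, and its signal is a brightness in arbitrary units, beside which the array software calls the transcript Present, Marginal or Absent. Signals below were scaled so that all arrays had the same 2% trimmed mean, which was 75.1, 87.4, 77.8 and 88.2 in the deposited signals of animals 11, 12, 13 and 14, and values of the animals are given in this order throughout. Of 52706 probe sets that were not controls, 16104 (30.6%) were Present on all 4 arrays and 20972 (39.8%) were Present on at least 2, and these 20972 are called measured here. They covered 11407 genes once old and new symbols were joined. Between 37.2% and 39.2% of the probe sets of an array were Present, against 2.78% to 4.54% of the 683 probe sets designed for viruses. The ratio of 3′ to 5′ signal of the GAPDH control was 2.65, 2.17, 2.17 and 2.29 and that of the ACTB control 8.94, 8.03, 7.85 and 10.9, highest in animal 14. Across measured probe sets the log2 signals of any pair of arrays correlated at r = 0.940 to 0.961 (n = 20972 probe sets, which are not independent replicates), the highest values being those of animals 11 and 12 (0.961) and of animals 13 and 14 (0.955).

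Contractile, calcium-handling and mitochondrial transcripts were prominent among the brightest, beside ribosomal proteins and a globin. The 100 brightest probe sets held 13.3 ± 0.67% of the summed signal (SD, n = 4), 36 probe sets averaged over 10000, and the median measured probe set averaged 91.8. Probes differ in how strongly they bind, so that the order is one of signal and not of transcript number.

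MYL2 led the named genes, and 6 further sarcomere genes were among the 25 of highest signal. MYL2, the ventricular regulatory light chain of myosin (chr11:111844065-111852320 in the Mmul_051212 build that the annotation uses), had the highest signal of any named gene, with 16137, 14762, 14724 and 13740. The 4 hearts lay close together here, with 1.17-fold between the highest and the lowest. ACTC, cardiac actin of the thin filament, averaged 11575 ± 1044 (SD, n = 4) and TNNT2, the troponin subunit that binds tropomyosin, 10705 ± 796. TNNI3, the inhibitory troponin, averaged 10228 ± 839 and MYL3, the ventricular essential light chain, 9623 ± 941. CSRP3, a LIM protein of the Z-disc, averaged 11439 ± 623. ACTA1, skeletal actin, was the least even of these genes, with 12958, 10493, 7007 and 8135. It was thus higher in animals 11 and 12 than in animals 13 and 14, with an SD of log2 signal of 0.39 against 0.13 for ACTC. The ACTA1 probe set (chr1:227526784-227527024) carries that name by its design, while the annotation titles it as similar to a nucleoporin.

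Calcium handling and oxygen supply stood beside the sarcomere. PLN, phospholamban (chr4:145432082-145432662), ranked just behind MYL2 among named genes with 15534, 13377, 14621 and 13914, and ATP2A2, the calcium pump it restrains, had 11676, 10239, 11644 and 10444. Both were even, with SDs of 0.09 and 0.10. MB, the oxygen store myoglobin, averaged 12315 ± 1510, and CRYAB, a small heat shock protein that protects the sarcomere, 11183 ± 1161.

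Energy metabolism supplied the largest block of bright genes. LDHB, the lactate dehydrogenase subunit typical of heart, averaged 12259 ± 835, MDH1, the cytosolic malate dehydrogenase, 10463 ± 605, and SLC25A4, the heart isoform of the ADP/ATP carrier, 10790 ± 747. Cytochrome oxidase subunits COX8A (10496 ± 982), COX7A1 (10348 ± 1266), COX6A2 (10258 ± 1262) and COX6B (9947 ± 1135) followed with the ATP synthase subunits ATP5C1 (10253 ± 1213), ATP5G3 (9560 ± 770) and ATP5A1 (9558 ± 477). The remaining named genes among the 25 brightest were FKSG2, whose probe set is annotated as translationally controlled tumour protein (12758 ± 1381), the ribosomal proteins RPL23A (11580 ± 1372) and RPS3A (10459 ± 1379), and the globin HBB. The probe sets of COX8A, ATP5A1 and HBB carry these names by design, while the annotation titles each of them as another gene.

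HBB, the beta chain of haemoglobin, was the least even of the 25 brightest genes, ahead of ACTA1. Its signals were 14371, 12020, 5412 and 9937, with the lowest value in animal 13 and an SD of 0.61, the highest among the 25. Of the 25 genes, 17 had a highest value at most 25% above the lowest, against 18.7% of all measured genes when each was read by its brightest probe set, and none reached 4-fold. The 25 were chosen as the brightest and spread fell with signal, so that the 18.7% is not a share at like signal. Animal 11 was highest for 22 of the 25, but for 8 with the deposited signals unscaled and for 8 after quantile normalization, so that the order of the animals in these genes depended on the scaling. The median deviation of all measured genes from the mean of the 4 hearts lay between -0.02 and 0.03 on the log2 scale, against -0.10, 0.10, -0.06 and 0.08 with deposited signals.

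**Figure D1:**
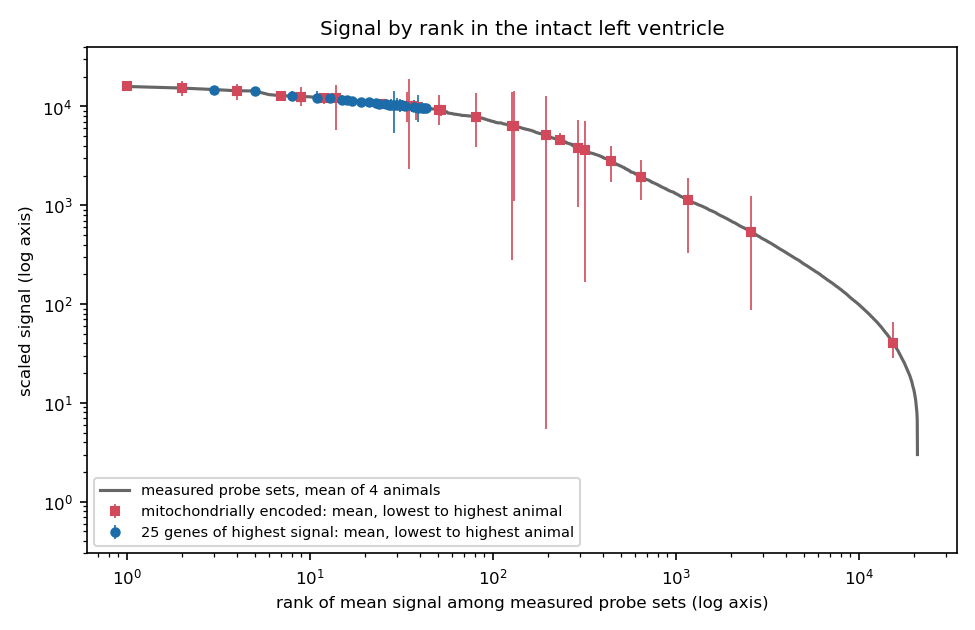
Mean scaled signal of the measured probe sets against their rank, both on log axes, with the 25 genes of highest signal in blue circles and the probe sets of mitochondrially encoded transcripts in red squares. Points are means of 4 animals and bars run from the lowest to the highest animal, and the widest bars belong to mitochondrially encoded transcripts, the widest of all spanning 5.48 to 12860.

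Within families of isoforms, the log2 ratio of a pair of probe sets inside an array does not move with the scaling. Its mean depends on how strongly each probe set binds. Its spread over animals is not free of this either, since dim probe sets varied more. The median SD was 0.36 below a mean signal of 100 and 0.18 from 1000 upward. Ratios with a dim member can therefore spread widely for that reason, and SDs of ratios are not compared at like signal. The 45 families examined had 131 members, of which 105 were measured, 20 were Present on no array and 6 were Present on 1 array by some probe set. They gave 95 ratios, of which 85 kept 1 order in all 4 hearts, 28 had an SD under 0.25 and 8 an SD over 1. Both members were Present on all 4 arrays in 89 of the ratios and in 7 of these 8. The median SD was 0.33.

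Most ventricular isoforms held their position over the fetal, atrial or skeletal partner. TNNI3 had 11430, 9538, 10143 and 9801 against 42.5, 51.0, 37.4 and 33.4 for TNNI1, the slow skeletal and fetal form, which was Present on 2 arrays, and the fast skeletal TNNI2 was Present on no array. The fast skeletal troponins TNNT3 and TNNC2 and the skeletal myosin binding proteins MYBPC1 and MYBPC2 were also Present on no array. RYR2, the cardiac ryanodine receptor, had 4458, 4083, 4617 and 4472, while RYR1, the skeletal form, read 1.09 to 2.19 and was Absent throughout. Of the calcium pumps, the fast skeletal ATP2A1 was Present on no array. The ratio of ATP2A2 to ATP2A3, Present on 3 arrays, was 7.66 ± 0.45 on the log2 scale (SD, n = 4).

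The myosin heavy chains were read by 2 gene-specific probe sets and a shared one. The MYH6 probe set (alpha chain, chr7:86221410-86224312) had 3653, 7772, 7209 and 5362, and the MYH7 probe set (beta chain, chr7:86253134-86260557) had 97.2, 196, 110 and 151. In each case animal 11 was lowest and animal 12 highest, and the log2 ratio of MYH7 to MYH6 was -5.43 ± 0.41. A brighter probe set at chr7:86252363-86254808, overlapping the MYH7 position but titled as similar to myosin heavy chain 6, had 14285, 11421, 13169 and 11290 and was assigned to neither gene. The balance of alpha and beta chain can therefore not be read as an amount from these probe sets.

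Light chains and troponin T showed where the partner isoform varied. MYL4, the atrial and fetal essential light chain, had 120, 240, 73.8 and 93.0, highest in animal 12, and the ratio of MYL3 to MYL4 had an SD of 0.76. MYL7, the atrial regulatory light chain, had 8051, 8589, 5237 and 7145, and the ratio of MYL2 to MYL7 was 1.05 ± 0.31. TNNT1, the slow skeletal troponin T (chr19:61142340-61146162), had 1140, 243, 169 and 172. Animal 11 thus stood alone for TNNT1 while its TNNT2 signal was within 1.16-fold of the others, and the ratio of TNNT2 to TNNT1 was 3.38 in animal 11 and 5.40 to 5.95 in the other animals.

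The calcium pump has a pair of small inhibitors. PLN was even, as described above. SLN, sarcolipin, which restrains the pump in atrium and skeletal muscle (chr14:106303069-106303598), had 104, 296, 23.7 and 2.83 and was Present in animals 11 and 12 alone. The log2 ratio of PLN to SLN was 7.23 and 5.50 in these 2 hearts, and its SD of 2.91 over the 4 hearts rests on SLN signals that were not detected in animals 13 and 14. CASQ2, the calcium store protein of the cardiac reticulum, had 7361, 6071, 5823 and 3579, lowest in animal 14. Among the pump and kinase families, the ratio of ATP1B1 to ATP1B2, sodium pump beta subunits of which the second was Present on 3 arrays, was 6.33 ± 0.09, and that of CAMK2D to CAMK2B, calmodulin kinase isoforms, 2.90 ± 0.19.

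Enzyme families of glucose and fat metabolism divided into constant and varying ones. The ratio of PFKM to PFKP, muscle and platelet phosphofructokinase, was 3.52 ± 0.19 and that of SLC25A4 to SLC25A6, ADP/ATP carriers, 2.64 ± 0.15. CKM and CKMT2, the cytosolic and mitochondrial creatine kinases of muscle, had a ratio of 0.03 ± 0.22. CKB, the brain creatine kinase, had 777, 941, 1167 and 2095, highest in animal 14, and the log2 ratio of CKM to CKB was 3.26, 2.84, 2.67 and 1.74. PYGL, the liver glycogen phosphorylase (chr7:113954524-113954830), had 42.4, 85.6, 236 and 238, while PYGM, the muscle form, had 1330, 1050, 1122 and 992. Animals 13 and 14 were above animals 11 and 12 for PYGL, and the log2 ratio of PYGM to PYGL had an SD of 1.36.

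PDK4 and FABP4 also spanned more than 4-fold. PDK4, the kinase that shuts off pyruvate dehydrogenase, had 2274, 2005, 507 and 1470 by its brightest probe set, and the log2 ratio of PDK4 to PDK1 was 2.63, 2.93, -0.20 and 1.44. FABP4, the fatty acid binding protein of adipocytes and capillary endothelium (chr8:83921057-83925499), had 1283, 646, 3799 and 3152. FABP3, the heart form, had 8322, 7178, 8172 and 8228, so that the log2 ratio of FABP3 to FABP4 was 2.70, 3.47, 1.11 and 1.38. CPT1B, the muscle carnitine palmitoyltransferase that admits fatty acids to mitochondria, had 782, 701, 454 and 482 against 349, 371, 455 and 326 for the liver form CPT1A, with a log2 ratio of 0.66 ± 0.51.

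Receptors, channels, chaperones and transcription factors completed the families. ADRB1, the main beta adrenoceptor of the ventricle, had 1083, 1258, 1141 and 1157, and ADRB3 was Present on no array. GJA1, the main connexin of working myocardium, averaged 4371 ± 641 and GJA5, the connexin of atrium and conduction tissue, had 127, 220, 96.8 and 104. KCNJ2, which carries the inward rectifier current, averaged 893 ± 214. None of the transient outward channel genes KCND3, KCND2 and KCNA4 was measured. The most constant ratio of the set was that of HSPB1 to HSPB3, small heat shock proteins, at 0.20 ± 0.03, whereas HSP90AB1 had 2755, 2038, 1363 and 1503 and its ratio to HSP90AA1 an SD of 0.53. Among transcription factors, GATA6 averaged 2708 ± 723 and GATA4 252 ± 50.4, and the ratio of MEF2A to MEF2D was 3.52 ± 0.15.

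Most measured probe sets spanned less than 4-fold between the 4 hearts. The median SD of log2 signal over measured probe sets was 0.29 and the median ratio of highest to lowest animal 1.56. A ratio of at least 4-fold was found for 974 probe sets (4.64%), of which 227 were Present on all 4 arrays, and for 3285 (15.7%) the highest animal was at most 25% above the lowest. Spread fell with signal, the median SD being 0.36 below a mean signal of 100, 0.23 from 100 to 1000 and 0.18 from 1000 upward. Of the 974, 173 reached 200 in the highest animal, and 134 of these were assigned to a gene. The 25 genes with the largest SD were taken from these by their most variable probe set, and their SDs ran from 1.82 to 3.78. Of the 25, 10 were Present on all 4 arrays, 8 on 3 and 7 on 2, and for the last 15 the lowest values were not called Present, so that the size of their SD rests on signals that were not detected.

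**Figure D2:**
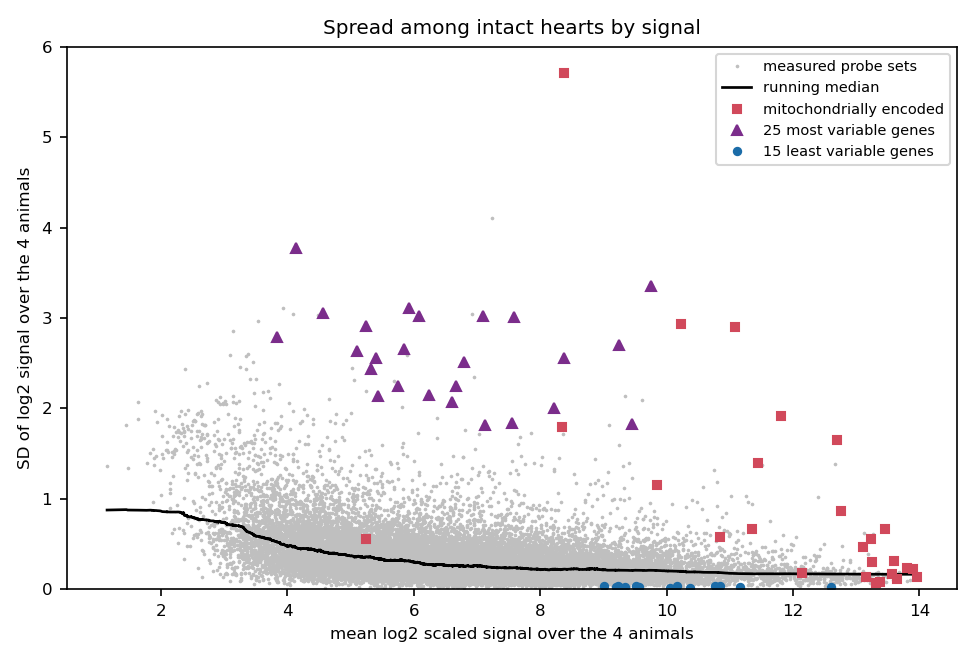
SD of log2 signal over the 4 animals against mean log2 scaled signal for measured probe sets (grey), with the running median (black line), mitochondrially encoded probe sets (red squares), the 25 most variable genes (purple triangles) and the 15 least variable genes (blue circles). The running median falls as signal rises, and the mitochondrial probe sets lie both on the line and far above it, up to an SD of 5.71.

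Genes of the major histocompatibility complex, which present peptides to T cells and are known for their many alleles, were among the most variable. MAMU-A, a class I gene, had 1816, 27.3, 3034 and 3748 by a probe set Present on all 4 arrays, and animal 12 stood alone with the low value. Its other measured probe set, titled to the same class, had 489, 602, 1074 and 450, with no low value in animal 12. HLA-DQB1, a class II beta chain (chr4:32391303-32391868), had 181, 122, 313 and 3.09, lowest in animal 14. Further HLA-DQB1 probe sets, Present on 2 arrays each, had 69.2, 58.9, 349 and 38.9 and 52.0, 10.2, 310 and 60.4, so that animal 13 was highest in each while the lowest animal changed. The cause was not tested.

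ELOVL6, THRSP, SCD and PLIN, among the 25 most variable genes, were each highest in animal 13. ELOVL6, the elongase of saturated fatty acids (chr5:102953826-102954376), had 6.10, 6.21, 531 and 15.7, and another ELOVL6 probe set at the same position had 17.2, 27.0, 851 and 31.0. THRSP, a regulator of lipogenesis, had 16.6, 16.6, 516 and 9.65, and SCD, the desaturase that makes oleic acid, 21.2, 24.7, 391 and 16.9. PLIN, perilipin of the adipocyte lipid droplet (chr7:69291960-69292854), had 16.8, 17.2, 605 and 18.1. In all of these animal 13 was the only heart above 200, and APOC1, an apolipoprotein by the probe set design but titled as similar to profilin 1, was likewise highest there with 89.9, 58.6, 903 and 23.0. ITLN2, annotated as similar to the lectin intelectin, had 28.3, 16.4, 531 and 34.8.

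Adipocyte markers as a list were read beside these genes. Of 11 listed genes 10 were on the array and 7 were measured, and 5 of the 7 were highest in animal 13, PLIN and FABP4 among them, against 24.7% of all measured genes. Their summed signal was 2097, 1552, 5627 and 4021. Of the defining markers, ADIPOQ, adiponectin, had 236, 239, 304 and 315 and LIPE, hormone-sensitive lipase, 71.0, 103, 253 and 169, while LEP, leptin, and RETN, resistin, were Present on no array. Their part in the lipid genes was not tested. In a piece of wall, fewer cells of a type and less RNA per cell cannot be told apart, here and for every list below.

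Other genes were high in the hearts of animals 11 and 12. These 2 hearts lay above animals 13 and 14 in 22.5% of all measured probe sets. The same order held in 52 of the 173 probe sets that spanned 4-fold and reached 200. PDK4 had 1243, 899, 15.2 and 80.1 by its most variable probe set (chr3:121681451-121681907), and all 3 of its measured probe sets were highest in animal 11 and lowest in animal 13. NPPA, the atrial natriuretic peptide (chr1:14947704-14949078), had 339, 812, 46.3 and 99.7 and was Present on all 4 arrays, a span of 17.5-fold. SLN, described above, shared the low values of animals 13 and 14. FLJ32942, whose probe set is annotated as similar to alpha-1 catenin, had 582, 111, 12.6 and 13.5, and MGC26963 had 241, 292, 14.3 and 32.4. The other probe sets of MGC26963 had SDs of 0.41 to 0.58 and so did not share this span.

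LMOD3 and PTER ran the other way. LMOD3, leiomodin 3, which nucleates actin filaments in striated muscle (chr2:67044454-67044799), had 4.45, 24.1, 353 and 356, and its other measured probe set had 7.42, 10.4, 64.2 and 113. PTER, annotated as phosphotriesterase related, had 121, 70.5, 1233 and 749, a span of 17.5-fold. For both genes animals 13 and 14 lay above animals 11 and 12, as in 21.7% of all measured probe sets and in 53 of the 173.

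Single animals set the range of several further genes. SIP1, a partner of the SMN splicing protein, had 121, 215, 104 and 4591, high in animal 14, while its 3 other probe sets read at most 80.7 in any animal. P8, a stress-induced nuclear protein, had 1862, 37.7, 1022 and 1871 and SULT1C2, a sulfotransferase that the annotation titles as member 4 of the same subfamily, 738, 124, 1055 and 2502. HIST3H2A, a histone, had 165, 22.6, 277 and 372, and these 3 genes shared the low value of animal 12, as did the second HIST3H2A probe set with 113, 33.6, 207 and 272. DNER, a transmembrane ligand of Notch, had 253, 8.27, 4.70 and 4.28, high in animal 11 alone. KCNK1, a potassium leak channel, had 124, 380, 12.8 and 148, low in animal 13.

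MYH8, C1ORF24, ANXA10 and GPR74 had orders of their own. MYH8, the perinatal skeletal myosin heavy chain (chr16:10147106-10149738), had 10.9, 427, 61.8 and 1238. C1ORF24, annotated as similar to niban, had 10.3, 131, 221 and 8.60, and a brighter probe set Present on all 4 arrays had 546, 2255, 2599 and 117, with the same pair of high hearts. ANXA10, a calcium-dependent phospholipid-binding annexin, had 44.6, 5.37, 0.97 and 409, the largest SD of the 25 (3.78). GPR74, a neuropeptide FF receptor, had 9.02, 142, 269 and 448. The next genes below the 25 were CRYM, CIT, NUP50, FABP4 and SERHL, with SDs of 1.81 down to 1.72 against 1.82 for HIST3H2A, the last inside.

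**Figure D3:**
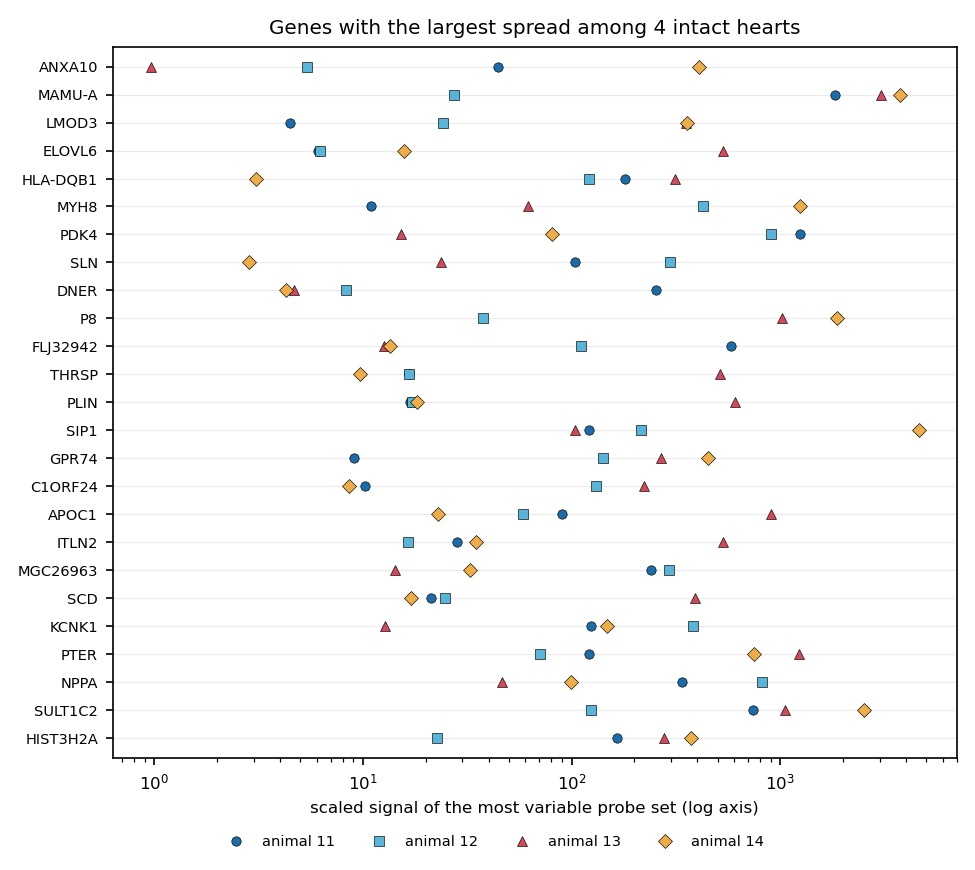
Scaled signal (log axis) of the most variable probe set of the 25 genes with the largest SD, with 1 symbol for each animal. Animal 13 is the single high heart for ELOVL6, THRSP, PLIN, APOC1, ITLN2 and SCD, and animal 12 the single low heart for MAMU-A, P8, SULT1C2 and HIST3H2A.

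A second probe set of the same gene is the only repeat of a measurement on the same RNA. Of the 53 genes with a span of at least 4-fold, a highest animal at 200 or more and at least 2 measured probe sets, 18 (34.0%) had the same highest and the same lowest animal on their brightest other probe set. Over all 4267 genes with at least 2 measured probe sets the share was 15.8%. In most of the 53 genes, then, another probe set did not place both extremes in the same animals.

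The steadiest transcripts were spread over sorting, chromatin, protein turnover and energy supply. The 15 genes with the smallest SD among probe sets Present on all 4 arrays and averaging at least 500 had SDs of 0.02 to 0.03. VPS26, a retromer subunit of endosomal sorting, had 743, 762, 752 and 759, and SET, a phosphatase inhibitor and histone chaperone, had 1066, 1044, 1058 and 1072. H3F3B, histone H3.3, averaged 1324 ± 16.0 and USMG5, a subunit associated with ATP synthase, 6236 ± 109. SDHB, the iron-sulphur subunit of succinate dehydrogenase, averaged 2287 ± 45.0 and CUL1, the scaffold of SCF ubiquitin ligases, 754 ± 13.6. UBE2D2, a ubiquitin-conjugating enzyme, PTPN11, a phosphatase of growth factor signalling, SENP3, a SUMO protease, SEPT2, a septin, and MRPL27, of the mitochondrial ribosome, were in the same range with FLJ32731, C6ORF66 and HSPC063. ACTN2, the alpha actinin of the Z-disc, was the sarcomere gene among them at 1752 ± 36.0, although its 3 other probe sets had SDs of 0.09 to 0.17. Other probe sets of these genes were in part less even, a dim SET probe set Present on all 4 arrays spanning 3.26-fold, the second C6ORF66 probe set 2.49-fold and the second SDHB probe set, Present on 2 arrays, 25.1-fold. The annotation titles the even probe sets of SET, C6ORF66 and MRPL27 as other genes.

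The identity of the tissue was checked with marker lists. All 15 cardiomyocyte markers were Present on all 4 arrays, with a median SD of 0.12 against 0.26 over all 11407 measured genes. Spread falls with signal, and the markers were bright, with a median signal of 8498, so that their SD was 0.74 times the running median at like signal, against 0.98 over all genes. In all, 10 of 15 had a highest animal at most 25% above the lowest, against 18.7% of all measured genes. The endothelial list was also complete, with 14 of 14 measured. Of the markers on the array, 5 of 14 of T and NK cells, 3 of 8 of B and plasma cells and 3 of 10 of neutrophils were measured, with CD3E, CD3G, MS4A1, S100A9, MSLN and UPK3B Present on no array. NPPB, the B-type natriuretic peptide, and HCN4, the pacemaker channel, were likewise Present on no array. HCN4 was listed with Purkinje and conduction cells, of whose 12 markers 7 were measured. Of 8 mesothelial markers on the array 2 were measured, WT1 and KRT8, and KRT8, a keratin, had 5.82, 6.76, 69.3 and 56.8.

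Oxidative phosphorylation genes were even. Of the 35 genes all but COX7B were measured. Among the 34, 19 had a highest animal at most 25% above the lowest, against 18.7% of all measured genes. None reached 4-fold, against 3.58%. The median SD of the list, 0.13, was 0.81 times the running median at like signal. SDHB and UQCRFS1, the Rieske protein of complex III, were its steadiest members with SDs of 0.03 and 0.05, and UQCRB, another complex III subunit, its least steady with 405, 514, 182 and 252. Animal 11 was highest for 23 of the 34 genes, but for 9 with deposited signals and 13 after quantile normalization, so that this order too depended on the scaling. Fatty acid oxidation (21 of 21 measured) and proteasome subunits (27 of 28) had median SDs of 0.20 and 0.16. In the first, ETFDH, which passes electrons to ubiquinone, had an SD of 0.04 and SLC27A6, a fatty acid transporter, had 529, 594, 259 and 349. PSMA7, a proteasome alpha subunit, had 1313, 1282, 2830 and 2850, higher in animals 13 and 14 than in animals 11 and 12. PSMB3, a beta subunit Present on 2 arrays, was the 1 proteasome gene that spanned 4-fold (3.70%), near the 3.58% of all measured genes.

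Extracellular matrix genes varied between the hearts more than other genes of like signal. All but ELN, elastin, of the 32 genes were measured, and their median SD of 0.45 was 2.07 times the running median at like signal, against 0.98 over all genes. Animal 12 was highest for 24 of 31 and animal 14 lowest for 19 of 31, where 23.5% and 30.1% of all measured genes had those extremes. COL1A1, the chain of type I collagen, had 2526, 6391, 3941 and 2830, and COL3A1, type III collagen, 1341, 3747, 2319 and 869. SPARC, a collagen-binding glycoprotein, had 1395, 3310, 2522 and 1359, and FN1, fibronectin, 1124, 1759, 1390 and 628. Animal 12 was highest for 22 to 26 genes under the 6 scalings, whereas with deposited signals animal 11 was lowest for 15 genes and animal 14 for 11. The median deviation of animal 12 from the mean of the 4 hearts was 0.48 on the log2 scale and that of animal 14 -0.35.

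A few matrix genes departed from that order. THBS1, thrombospondin 1, had 869, 1339, 171 and 429, and POSTN, periostin, had 39.7, 74.9, 206 and 230. DCN and LUM, the proteoglycans decorin and lumican that mark fibroblasts, were almost level, with SDs of 0.17 each. The fibroblast list, which shares DCN, LUM, OGN and 3 collagen genes with the matrix list, had 12 of 13 genes measured, 8 highest in animal 12 and 8 lowest in animal 14, with summed signals of 20713, 28582, 22801 and 16799. TCF21, a transcription factor of cardiac fibroblasts, was Present on no array. Their part in the matrix values was not tested.

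Macrophage markers were lowest in animal 14. Of 11 measured genes 10 had their lowest signal there, against 30.1% of all measured genes, and summed signals were 1064, 957, 980 and 700. C1QB, of the complement C1q complex, had 95.3, 81.4, 89.9 and 32.8 and AIF1, an actin-binding protein of macrophages, 72.3, 38.1, 35.8 and 20.5. Signals of this list were low, the median being 71.9, and MARCO was Present on no array.

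Immediate early genes, which cells switch on quickly after a stimulus, were lowest in animal 11. All 22 measured members of 25 were Present on all 4 arrays, and 15 were lowest in animal 11 and none highest in it, against 22.8% and 27.4% of all measured genes. NR4A1, an orphan nuclear receptor, had 323, 756, 1314 and 1112. NR4A3 and NR4A2 of the same family were high in animal 14, with 294, 412, 545 and 2478 for NR4A3 and 87.5, 107, 141 and 537 for NR4A2. ATF3, a stress-induced repressor, had 59.2, 93.3, 112 and 450. JUN and JUND, by contrast, had SDs of 0.10. The median deviation of animal 11 was -0.38 and stayed between -0.50 and -0.29 under the 6 scalings. The cause was not tested.

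Atrial markers were highest in animal 12 for 8 of 11 measured genes, NPPA and SLN among them, against 23.5% of all measured genes. KCNJ3, which helps form the potassium channel opened by acetylcholine, had 321, 690, 370 and 617, and NR2F2, a factor of atrial identity, was level with an SD of 0.14. BMP10, a growth factor of the right atrium, was not measured. Among genes known to follow the depth of the ventricular wall, IRX5, Present on 2 arrays, had 111, 125, 13.2 and 56.9 and IRX3 1145, 1319, 400 and 878, both lowest in animal 13. KCNIP2, the subunit that shapes the transient outward current, had 31.6, 117, 187 and 189, lowest in animal 11.

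Ion channel genes had a median signal of 131 for potassium and 132 for sodium, calcium and pacemaker channels, against 127 over all measured genes. Of 18 potassium channel genes 13 were measured, 2 of which had a span of at least 4-fold (KCNK1 and KCNIP2). Of 14 sodium, calcium and pacemaker channel genes 10 were measured, none with that span, which 3.58% of all measured genes had. KCNH2, which carries the rapid delayed rectifier, had 457, 511, 432 and 747, highest in animal 14, and KCNQ1, which carries the slow one, 95.4, 64.7, 90.7 and 96.9. CACNA1C, the pore of the L-type calcium channel, read 11.3 to 24.3 and was Present on 2 arrays, too low for its spread to be read.

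Stress and contractile lists filled the remaining range. ANKRD1, a stretch-responsive protein of the Z-disc, had 4516, 4187, 1126 and 1817, so that animals 11 and 12 lay above animals 13 and 14. It was the only 1 of 13 Z-disc genes past 4-fold (7.69%), against 3.58% of all measured genes. MYOM1, myomesin of the M-band, had 2096, 1878, 902 and 1222. Of 22 heat shock genes 9 had a highest animal at most 25% above the lowest, against 18.7% of all measured genes. The list was bright, with a median signal of 1408 against 127 over all measured genes. At like signal its median SD was 0.92 times the running median, close to the 0.98 over all genes. None reached 4-fold, against 3.58%, the widest being DNAJB4 with 612, 620, 281 and 390. Cytosolic ribosomal proteins (41 of 43 on the array measured) had a median SD of 0.17, and RPL6 an SD of 0.04.

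**Figure D4:**
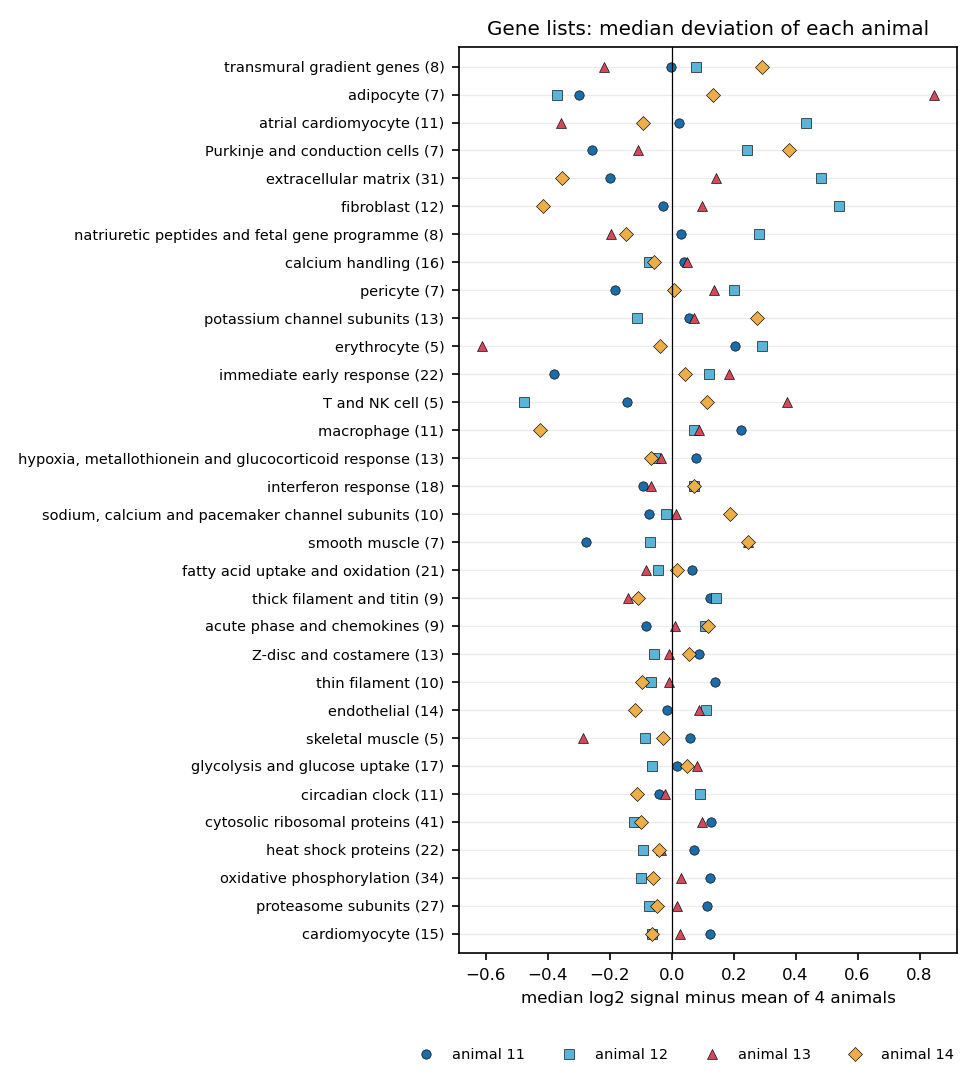
Median over the measured genes of each list of log2 signal minus the mean of the 4 animals, with the number of genes in brackets and 1 symbol for each animal; the vertical line marks no deviation, and lists are ordered by their median SD over the running median at like signal, lists with under 5 measured genes being left out. Animal 13 stands apart for adipocyte genes at 0.85, animal 12 for extracellular matrix and fibroblast genes at 0.48 and 0.54, while the cardiomyocyte and oxidative phosphorylation lists stay within 0.12 of the line.

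Transcripts encoded by the mitochondrial genome held the first, the second and the fourth rank of signal, and others of their probe sets were far dimmer. They were read by 26 probe sets for 15 transcripts, of which 15 probe sets were among the 100 brightest and 11 were not. The dimmest, ND6, a subunit of complex I encoded on the opposite strand, had 37.7, 29.8, 28.4 and 65.3. Of the 26, 8 spanned at least 4-fold (30.8%), 7 of them among the 11 dimmer ones, against 4.64% of all measured probe sets. The 15 among the 100 brightest had a median SD of 0.23 and 1 of them spanned 4-fold, against 0.14 and 1 for the other 85 of the 100. That 1 of the 85, a probe set without a gene name, had 16179, 13725, 2478 and 3312. Its annotated position overlaps that of a probe set for the ribosomal RNA at 1624-3181, so it may be mitochondrial as well. Names follow the probe set design where it gives one, and others are given by their positions on the mitochondrial genome of the MMUL_1 build.

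The probe sets of 1 transcript did not always agree, some running in opposite directions and others pairing a level probe set with an uneven one. For the transcript at 10751-12128, the first probe set had 10698, 13990, 277 and 545, the second, Present on 2 arrays, 23.1, 5.48, 7472 and 12860, and the third 1596, 2167, 2889 and 1139. Animals 11 and 12 were thus far above animals 13 and 14 in the first and far below them in the second. Of the 26 probe sets, those for the ribosomal RNA at 1624-3181 had 2621, 2333, 18941 and 16897 in 1 case and 11385, 10707, 10161 and 10176 in the other. ND2, a subunit of complex I, was level in 1 probe set (7992 to 9874) and had 1553, 1901, 331 and 735 in the other.

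ATP8, a subunit of ATP synthase, had 6793, 7134, 167 and 257, and ND4L, a small subunit of complex I Present on 2 arrays, had 86.7, 152, 680 and 1230. COX1, the catalytic subunit of cytochrome oxidase, was lower in animals 13 and 14 by 1 probe set (14112, 12923, 6895 and 6967). The same held for another (15859, 13880, 10096 and 10510), while a dimmer one was higher in them (1739, 1763, 3791 and 3997). In the remaining COX1 probe set animal 13 was lowest (5813), and animals 12 and 14 were close (12871 and 13037). By contrast COX2, its partner, stayed within 1.47-fold in both of its probe sets. In all, 6 of the 26 probe sets had both animals 11 and 12 above both animals 13 and 14, 10 had the reverse and 10 overlapped. Over all measured probe sets 22.5% and 21.7% had these orders. Of the 4 probe sets at 8518-9198, the pair that held the first 2 ranks of signal had 14907, 14545, 16791 and 17532 and 14175, 12767, 18157 and 16371. The other pair had 13815, 11716, 12869 and 10677 and 12956, 7109, 10196 and 6476, the last spanning 2.00-fold. The transcript at 14741-15881 had 1117, 1200, 14329 and 8704, and ND5, a large subunit of complex I, had 1633, 7260, 952 and 5411, which paired animal 12 with animal 14. The cause of these differences was not tested.

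**Figure D5:**
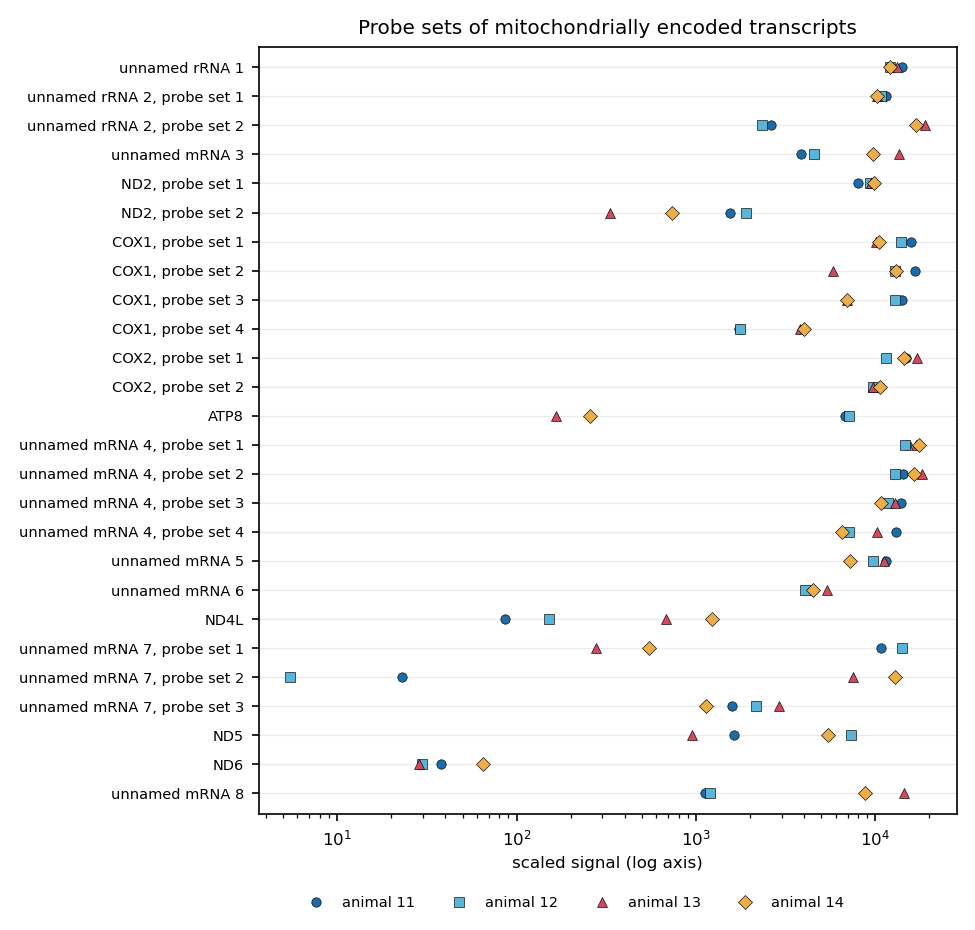
Scaled signal (log axis) of the 26 probe sets of mitochondrially encoded transcripts in genome order, with 1 symbol for each animal; transcripts that the probe set design does not name are numbered. Animals 11 and 12 lie together and apart from animals 13 and 14 in several probe sets, in opposite directions for the 2 most uneven probe sets of unnamed mRNA 7 (5.48 to 12860 and 277 to 13990).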

How the data were processed

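Signals and detection calls were made by the authors from the array scans with the MAS5 algorithm, and the deposited signals are linear intensity values per probe set, not log-transformed. The authors also deposited log2 values normalized in GeneSpring GX, each the log2 signal less the array median and less the probe set's median over the non-operated arrays, so that levels cannot be read from them; they served as an alternative. The detection p-value behind each call was deposited by the authors with the call and was not adjusted, and 6 columns of probe-pair numbers were not used. The annotation names the genome build Mmul_051212. Here each array was scaled to a common 2% trimmed mean over all probe sets and log2 was taken with no offset. The common level was the geometric mean over all 6 arrays of the series, block arrays included. It sets the absolute signals and so the cuts on signal, but not the ratios between animals. Control probe sets (158) were left out, and a probe set was measured if Present on at least 2 of the 4 arrays. Genes were taken from the probe set design first and then from the annotation, for 40562 probe sets and 19600 genes; 334 probe sets of several genes and 215 with conflicting names were left unassigned. Gene lists and families used the brightest measured probe set of a gene. Named were the 25 genes of highest signal, the 25 of largest SD with a highest array at 200 or more, the 15 of smallest SD with a mean of at least 500, the members of the families, and from each list up to 4 members of largest and up to 2 of smallest SD. Some members of the lists and families are not reported here. A few list members were named beyond this after their values were seen. The members and lists were chosen with earlier results of these data known. No test between groups was run, since 4 arrays of 1 group allow a description only; their number limits the precision. Single animals far from the others were sought with Dixon's 95% critical value, on the log2 scale for signals and on the linear scale for array measures. Python 3.11.15 with numpy 2.4.6 and pandas 2.3.3 was used, and the scripts were tested on simulated data.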

Additional observations from a re-analysis of the deposited data

Results flagged for a closer look

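In 11 of 181 values (6.08%) the gap from 1 animal to the nearest of the other 3 took a share of the range above Dixon's 95% critical value. Chance passes that value in about 1 in 20 groups of 4. The 181 were genes and mitochondrial probe sets on the log2 scale and a few array measures on the linear scale. Of the 11, 6 were genes chosen for their large spread, to which that rate does not apply. The values were those of animal 11 in 4, animal 12 in 3, animal 13 in 4 and animal 14 in none. PLIN, the lipid droplet protein, was 605.5 in animal 13 against 16.8 to 18.1 in the others, SCD 391 against 16.9 to 24.7, and THRSP 516.1 against 9.65 to 16.6. MAMU-A was 27.33 in animal 12 against 1816 to 3748, and P8 37.73 against 1022 to 1871. DNER was 252.6 in animal 11 against 4.28 to 8.27. The remaining deviations were small in size. VDAC1 was 3401 in animal 13 against 3708 to 3729, and FABP3 7178 in animal 12 against 8172 to 8322. In animal 11, LDHB was 13508 against 11744 to 11900, TNNT2 11887 against 10221 to 10479, and CUL1 774.2 against 745.8 to 749.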

How the results depend on the processing

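Counts depended most on how low signals were treated. With an offset of 32 the probe sets spanning at least 4-fold fell to 131, those whose highest animal was at most 25% above the lowest numbered 6766, the median SD was 0.1885 and the share of the 100 brightest 10.85%. With no filter on detection 16680 probe sets spanned 4-fold and the median SD was 0.548; with Present on all 4 arrays these were 227 and 0.253, and the share was 14.39%. The median SD was 0.3094 with deposited signals and 0.3012 with the authors' normalized columns. Leaving out 1 animal gave 434 to 488 probe sets at 4-fold, 5366 to 6006 at most 25% above, and a median SD of 0.2502 to 0.2655; fewer animals narrow a range by construction. Of the 25 most variable genes 15 lost the 4-fold span without 1 animal: ELOVL6, THRSP, PLIN, APOC1, ITLN2, SCD and KCNK1 without animal 13, MAMU-A, P8, SULT1C2 and HIST3H2A without animal 12, HLA-DQB1 and SIP1 without animal 14, and DNER and GPR74 without animal 11. When the probe sets of each gene were averaged, SIP1 and MGC26963 lost it, and 8 family ratios changed sign: PDK2 to PDK1 (0.3914), VDAC1 to VDAC3 (0.5007), EEF1A1 to EEF1A2 (-0.09642), HSPB1 to HSPB7 (1.783), HSPB2 to HSPB7 (0.01379), HSPB3 to HSPB7 (1.587), HSPB7 to HSPB8 (-2.129) and MEF2C to MEF2D (-2.174). A further 38 of the 95 ratios moved by more than their SD, and 4 of the 15 least variable genes left their class. All 380 ratios computed without 1 animal lay within 1 SD of the value over 4 animals. Leaving out 1 of 4 values cannot move their mean further than that, so this outcome was fixed in advance. Of the 380, 3 changed sign. FABP4 to FABP5 (0.11) was -0.31 without animal 13 and -0.32 without animal 14. CKM to CKMT2 (0.03) was -0.07 without animal 14. The cause was not tested. The mitochondrial count of 8 at 4-fold was also recomputed, an alternative chosen after seeing the data, and was 7 without animal 13 and 8 otherwise. No paired analysis was possible because only 1 group was described, and the numbers 11 to 14 name animals.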
